A study of Danio rerio with 7 samples.

Results

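The genes described here are those of module 3, 1 of 8 gene modules from sorted zebrafish heart cells, that carry a functional annotation in the chart deposited with it. A gene was taken if it was listed under any biological process or KEGG pathway term of that chart and its symbol did not mark it as a solute carrier, an integrin or a collagen. The terms listed 137 genes, 9 solute carriers were left out, and 128 genes remained. They are 35.9% of the 357 genes of module 3, and the 8 modules hold 4449 genes. The members were not chosen by expression values, and the lists give none. The chart's p-values bear on the terms through which the members were picked, so they describe these genes and are no separate support for them.

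The cells came from hmga1a mutant and wildtype zebrafish. The 4 hmga1a mutant plates and the 3 wildtype plates all held cells of adult hearts that carried the nppa:mCitrine reporter, a fluorescent protein under control of the natriuretic peptide gene nppa, and that were taken 7 days after cryoinjury, a freezing wound to the ventricle. Cells were sorted on the reporter, 1 to a well, and are labelled as border zone cardiomyocytes, the heart muscle cells next to the wound. The hmga1a allele is not given, and the labels do not say whether the plates of a group came from separate animals or pools. The modules hold gene identifiers without levels, so no gene can be compared here between hmga1a mutant and wildtype plates, and the share of cells behind any gene is unknown.

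Chemokines are small secreted proteins that draw cells along a gradient through G-protein coupled receptors, which raise calcium in the cell and steer its actin skeleton. Cytokines such as tumour necrosis factor act on receptors of other families to activate or restrain immune cells. After injury to the zebrafish heart, macrophages and neutrophils enter the wound, blood vessels sprout into it, and the endocardium and epicardium make retinoic acid, while cardiomyocytes at its border divide.

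Chemotaxis came first among the 53 biological process and KEGG terms of the chart, but most members were in no immune or chemotaxis term. The 15 immune and chemotaxis terms together held 34 of the 128 members (26.6%). The 8 actin and GTPase terms held 28 (21.9%), the 6 neural terms 24 (18.8%), the 2 vessel terms 11 (8.59%) and the fin regeneration term 8 (6.25%). A further 40 members (31.2%) were in none of these groups of terms. The immune and vessel terms shared S1PR1 and SYK. Vessel terms thus held 5.88% of the members in immune terms, against 8.59% of all members. The immune and actin terms shared CORO1A, both genes named RHOG, WAS and cxcl32b.1. Actin and GTPase terms thus held 14.7% of the members in immune terms, against 21.9% of all members. Of these 53 biological process and KEGG terms, 5 had an adjusted p under 0.05 in the authors' deposited table, which is 9.43% of them. These were chemotaxis, fin regeneration, cytokine-cytokine receptor interaction, actin filament organization and cell differentiation.

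**Figure D1:**
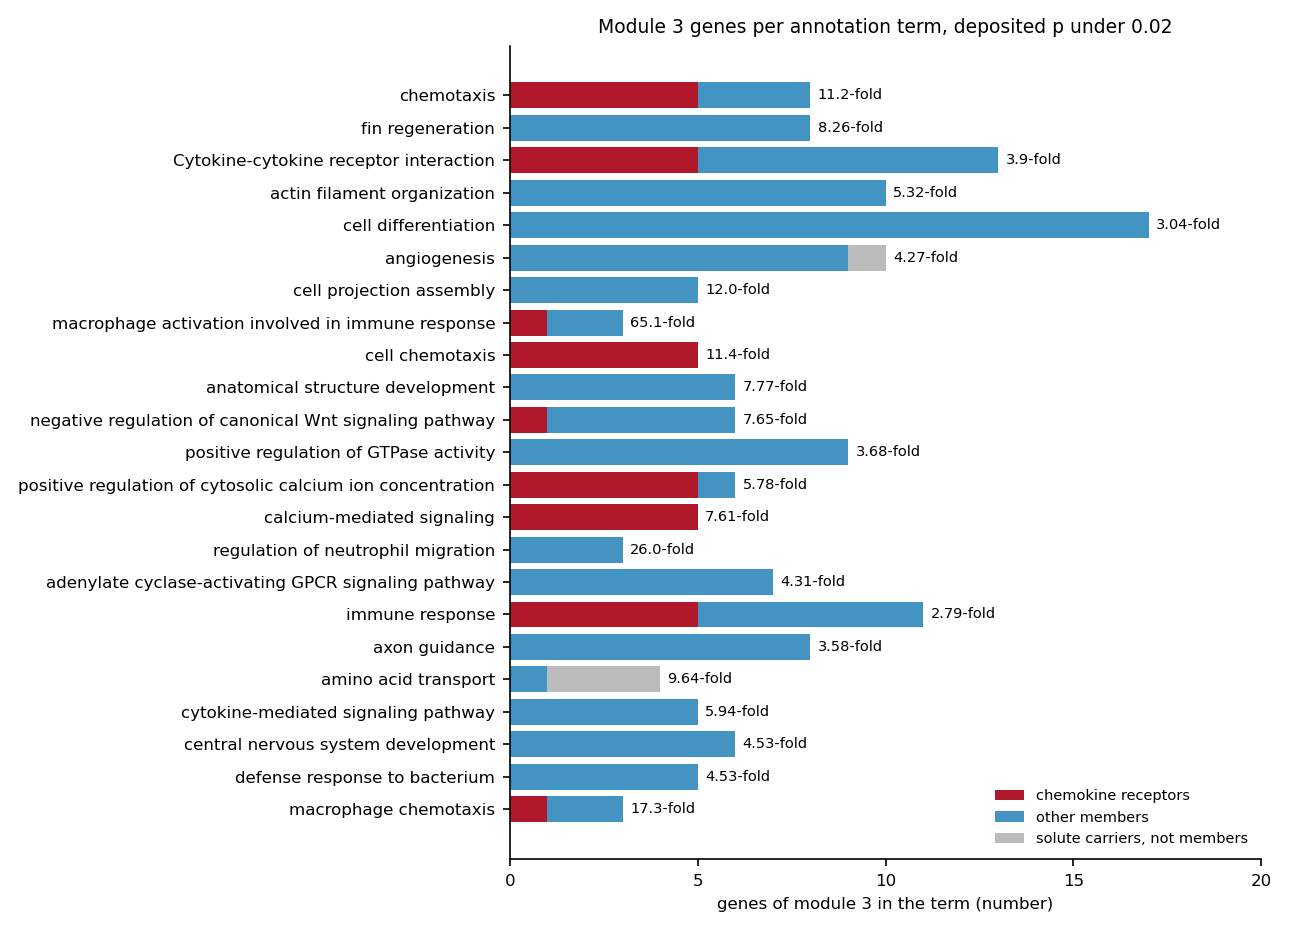
Genes of module 3 in the first 23 biological process and KEGG terms of its chart, in the order of the deposited p. Bars give the number of genes identified in each term, with chemokine receptors in red, other members in blue and solute carriers, which are not members, in grey, and the deposited fold enrichment beside each bar. Chemotaxis, with 8 members, comes first, and the 5 chemokine receptors are the whole of cell chemotaxis and of calcium-mediated signaling.

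Chemokine receptors were among the members listed in the most terms. The 5 of them were cxcr3.2 (ENSDARG00000041041), CCR7 (ENSDARG00000044561), CCR9 (ENSDARG00000055186), ACKR4 (ENSDARG00000040133) and ccr2 (ENSDARG00000079829). In zebrafish, cxcr3.2 guides macrophages to infection and wounds. In mammals, CCR7 brings T cells and dendritic cells to lymph nodes, CCR9 brings T cells to the gut, CCR2 marks inflammatory monocytes, and ACKR4 takes up chemokines without signalling through G proteins. The gene cxcr3.2 was in 10 of the 53 terms, CCR7 and CCR9 were in 8 each, and ACKR4 and ccr2 in 7 each, as was VANGL2, a planar polarity protein. By contrast, 56 members were in 1 term and 38 in 2 terms.

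These 5 receptors occurred in 12 terms and made up 40 of the 288 pairs of gene and term (13.9%), so the terms are not separate counts. All 5 were in 7 terms, namely chemotaxis, cytokine-cytokine receptor interaction, cell chemotaxis, the cytosolic calcium term, calcium-mediated signaling, immune response and signal transduction. They were the whole of both the cell chemotaxis and the calcium-mediated signaling terms, which therefore held the same 5 genes under different names. Chemotaxis added 3 genes to them. These were C3AR1, a receptor for a fragment of complement, S1PR1 (ENSDARG00000042690), a lipid receptor of endothelium and lymphocytes, and the ligand cxcl20 (ENSDARG00000075163). The authors' deposited table gives these 8 chemotaxis genes an 11.2-fold enrichment (p = 6.9e-06, adjusted p = 0.00473), and they were 12.9% of the 62 chemotaxis genes in its background. Cell chemotaxis, with 5 genes, had an 11.4-fold enrichment there, but its adjusted p of 0.0757 in the authors' deposited table missed the threshold.

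**Figure D2:**
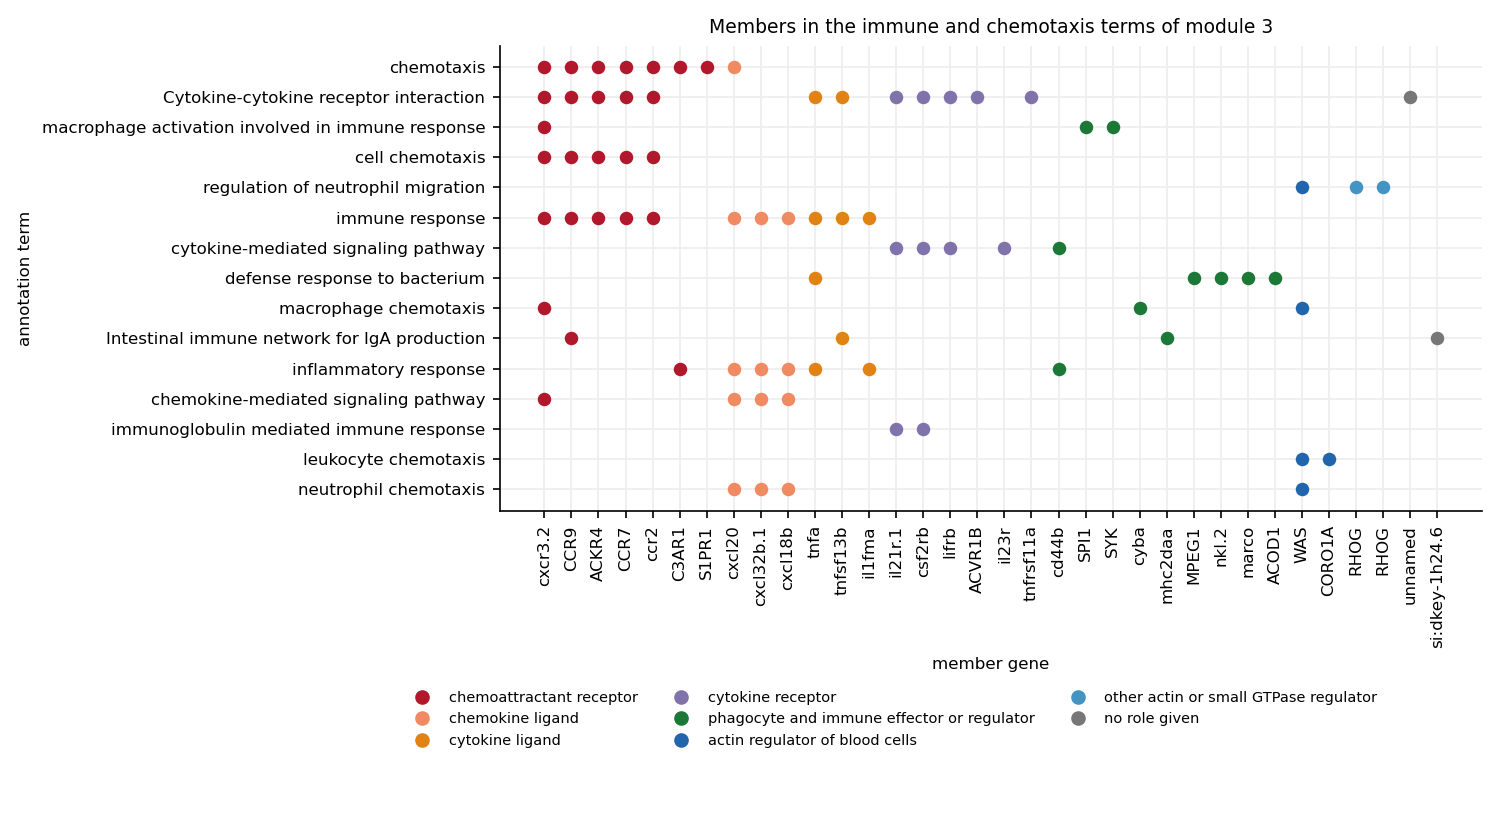
The 34 members in the immune and chemotaxis terms. Each point marks a gene (horizontal axis) listed in a term (vertical axis, in the chart's order), coloured by the gene's role. The 5 chemokine receptors at the left repeat together in 4 of the 15 terms shown. Among these 4, cytokine-cytokine receptor interaction also holds il21r.1, csf2rb and lifrb. The gene cxcr3.2 also shares macrophage activation with SYK and SPI1, and macrophage chemotaxis with cyba.

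The 3 chemokine ligands among the members were cxcl20, cxcl32b.1 (ENSDARG00000071499) and cxcl18b (ENSDARG00000075045). In zebrafish, cxcl18b draws neutrophils to sites of inflammation. Each of the 3 was in the immune response, inflammatory response, chemokine-mediated signaling and neutrophil chemotaxis terms. The neutrophil chemotaxis term held only them and WAS, and in the authors' deposited table it had a 4.03-fold enrichment with an adjusted p of 1. The remaining cytokine ligands were tnfa (ENSDARG00000009511), the tumour necrosis factor of activated macrophages, tnfsf13b, a survival factor of B cells, and il1fma, a fish member of the interleukin-1 family. The gene tnfa was in 6 terms, from immune response to fin regeneration.

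Cytokine receptors of other families were also among the members. The term cytokine-cytokine receptor interaction held 13 members, with a 3.9-fold enrichment in the authors' deposited table (p = 0.000101, adjusted p = 0.00731). It comprised the 5 chemokine receptors, the ligands tnfa and tnfsf13b, and 5 receptors of other families. Those were csf2rb, a chain shared by receptors of myeloid growth factors, the interleukin receptor il21r.1, lifrb of the leukaemia inhibitory factor family, tnfrsf11a, which directs osteoclast formation, and ACVR1B, an activin receptor. The last of the 13 was ENSDARG00000090844, which the name table gives no symbol. Another interleukin receptor, il23r, was not in that term. It stood in the cytokine-mediated signaling term with csf2rb, lifrb, il21r.1 and the hyaluronan receptor cd44b, with a 5.94-fold enrichment and an adjusted p of 0.345 in the authors' deposited table.

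Phagocyte and immune effector genes numbered 11 (8.59% of the members). They included both copies of the myeloid master transcription factor PU.1, SPI1 and spi1a. SYK is a kinase that carries signals from immune receptors, and cyba is a membrane subunit of the oxidase that makes superoxide. The scavenger receptor marco, the pore-forming MPEG1, the antimicrobial nkl.2 and ACOD1, which makes itaconate in activated macrophages, were listed with tnfa under defense response to bacterium. That term counts 6 genes in the authors' deposited table and has an adjusted p of 0.345 there, but only 5 identifiers are listed with it. The others were cd44b, mhc2daa, an antigen-presenting class II chain, and tnip2, a restraint on NF-kB. The small term macrophage activation involved in immune response held 3 of the 4 genes in its background, cxcr3.2, SYK and SPI1, at 65.1-fold and an adjusted p of 0.0757 in the authors' deposited table. Macrophage chemotaxis held 3 of 15, cxcr3.2, cyba and WAS, at 17.3-fold and an adjusted p of 0.389 in the same authors' deposited table.

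Of the 128 members, 8 (6.25%) were actin regulators used above all by blood cells. WAS (ENSDARG00000026350), mutated in a human immunodeficiency, starts branched actin, and NCKAP1L is the blood cell form of a subunit of the WAVE complex. CORO1A and FMNL1 shape actin in leukocytes, DOCK8 activates a small GTPase in lymphocytes, and arhgap25, SWAP70 and APBB1IP act in phagocytes and lymphocytes. A further 17 members (13.3%) were other regulators of actin or small GTPases, among them ARHGEF2, IQGAP1 and the RHOG genes (ENSDARG00000068653 and ENSDARG00000004301), which carry the same symbol. The actin filament organization term held 10 members, with a 5.32-fold enrichment (p = 0.000115, adjusted p = 0.0262) in the authors' deposited table. Only 3 of its members, CORO1A, arhgap25 and WAS, were regulators of the blood cell kind. The others were both RHOG genes, ARHGEF2, myo1ca, sh3kbp1, the channel TRPV4 and VANGL2. WAS and the RHOG genes were also the whole of regulation of neutrophil migration, 3 of 10 background genes at 26.0-fold and an adjusted p of 0.266 in the authors' deposited table.

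Vessel genes were 9 of the members (7.03%). Of these, flt1 is a receptor that traps VEGF, robo4 is an endothelial guidance receptor, and rasip1 is needed for vessel lumens. ERG and sox18 are endothelial transcription factors, ramp2 is a partner of the adrenomedullin receptor, and ADGRL4 is an adhesion receptor of endothelium. GNA13 (ENSDARG00000037924) is a G-protein subunit, and angptl2b is an angiopoietin-like factor. Angiogenesis counted 10 genes, 9 of them members, at 4.27-fold (p = 0.000584) in the authors' deposited table, where its adjusted p of 0.0757 missed the threshold.

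Some members belonged to signals known from regenerating tissue. Fin regeneration held 8 members, with an 8.26-fold enrichment (p = 5.13e-05, adjusted p = 0.0176) in the authors' deposited table. They were tnfa, ACVR1B, igf2b, a growth factor, ALDH1A2, which makes retinoic acid, EZH2, a histone methyltransferase, GATA3, a T-cell transcription factor that also acts in other tissues, the gap junction gene GJA1 and the tubulin tubb5. Of them, tnfa and ACVR1B (25.0%) were also in an immune term, against 26.6% of all members. Retinoic acid receptor signaling joined ALDH1A2 with the receptors RXRA and RXRB, with an adjusted p of 0.634 in the authors' deposited table. The negative regulation of canonical Wnt signaling term held the secreted antagonists WIF1, dkk2 and draxina, with tmem88b, VANGL2 (ENSDARG00000027397) and CCR7, at 7.65-fold and an adjusted p of 0.0757 in the authors' deposited table.

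The cell differentiation term drew on several of these groups. Its 17 members had a 3.04-fold enrichment (p = 0.000163, adjusted p = 0.0279) in the authors' deposited table. SPI1, spi1a and SYK are genes of blood cells, and ERG and sox18 are genes of endothelium. RXRA, RXRB, HNF4A and NR2E1 are nuclear receptors, and foxc1b, eya2, znf423 and ID3 are transcription factors or their inhibitors. VANGL2, GJA1, ARHGEF2 and NHSL1 completed it. The 12 guidance and neural members (9.38%) included the semaphorins sema4e and sema3gb, the ephrin EFNA1, the ephrin receptor EPHA4 and the neurofilament NEFL. Axon guidance held 8 members, robo4 among them, at 3.58-fold and an adjusted p of 0.292 in the authors' deposited table.

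The cell types that the genes point to were read from 13 lists of marker genes, as the count in module 3 of all list genes in any module. Many listed symbols matched no gene of any module, and the shares leave those out. The T and NK cell list has 49 symbols, with 7 genes in any module, and the endothelial list 64 symbols, with 14. Module 3 holds 8.02% of all module genes. Of the 46 leukocyte markers in any module, 17 (37.0%) were in module 3, and 11 of these were members. Of the 17 endothelial and endocardial markers, 9 (52.9%) were in module 3 and 8 were members. None of the 17 cardiomyocyte markers was in module 3. At the 8.02% share of all module genes only few of the 17 would lie there, so the 0 says little. Of the 17, 8 were in module 7, which holds 379 of the 4449 module genes. Another 4 were in module 4, 2 each in modules 2 and 6 and 1 in module 5. No gene of any module was on both a leukocyte and an endothelial or endocardial list, so the lists could not place a member on both. With symbols matched exactly, 107 of the 128 members were on no cell type list. No test was made of these shares, and a marker shows only that its gene is in the module, not in which cells or how many.

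Within the leukocytes, macrophage markers were the most numerous, but their list was also the longest. It has 65 symbols, against 49 for T and NK cells, 30 for neutrophils, 29 for B cells and 10 for mast cells and their kin. The counts therefore do not rank the cell types. Module 3 held 12 of the 33 in any module (36.4%), among them the members SPI1, spi1a, cyba, C3AR1, CORO1A, marco and tnfa, and the non-members c1qa, c1qb, cd83 and IRF8. The 2 complement genes c1qa and c1qb are made by macrophages. Module 1, with 1543 of the 4449 module genes, held 14 macrophage markers, among them cd68, ptprc, LCP1, cd74a and cd74b. Module 4 held 4, cybb among them, and module 2 held 3, csf1rb among them. Neutrophil markers numbered 2 of 8 (25.0%), both of them on the macrophage list too, so module 3 held no marker of neutrophils alone. T and NK cell markers numbered 4 of 7 (57.1%): nkl.2, CCR7 and GATA3 among the members and gzm3 outside them. The single B-cell marker of 3 matched exactly was SYK, which other blood cells also use. Exact matching missed some members whose symbols are in capitals without a final letter or number. These were SWAP70 on the B-cell list, CCR9 on the T and NK cell list and MPEG1 on the macrophage list. With final letters and numbers dropped, T and NK cell markers were 5 of 9 and macrophage markers 13 of 37. When symbols were matched exactly, none of the genes on the mast cell list or on the neural and glial list was in any module. The 2 erythrocyte and 2 thrombocyte markers matched exactly were in other modules. Looser matching was not run for each of these lists alone.

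Endothelial markers in module 3 numbered 8 of 14 (57.1%) with symbols matched exactly. With final letters dropped, or final letters and numbers, they numbered 8 of 17 (47.1%). The 8 were rasip1, robo4, flt1, ramp2, sox18, S1PR1 and ERG, all members, and the non-member she. The defining junction gene cdh5 was not with them but in module 1, with vwf and myct1b, and the receptor genes TIE1 and KDR were in modules 2 and 8. Other cell types were thinly marked. ALDH1A2, on both the endocardial and the fibroblast and epicardial lists, was 1 of 5 endocardial markers. With DCN and TGFBI it made 3 of the 8 fibroblast and epicardial markers (37.5%). When symbols in capitals were also matched to listed symbols without their final a or b, this was 3 of 13 (23.1%). The gene foxc1b was 1 of 5 smooth muscle and pericyte markers. Exact matching also missed the member HAPLN1, which the endocardial list names with a final letter.

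**Figure D3:**
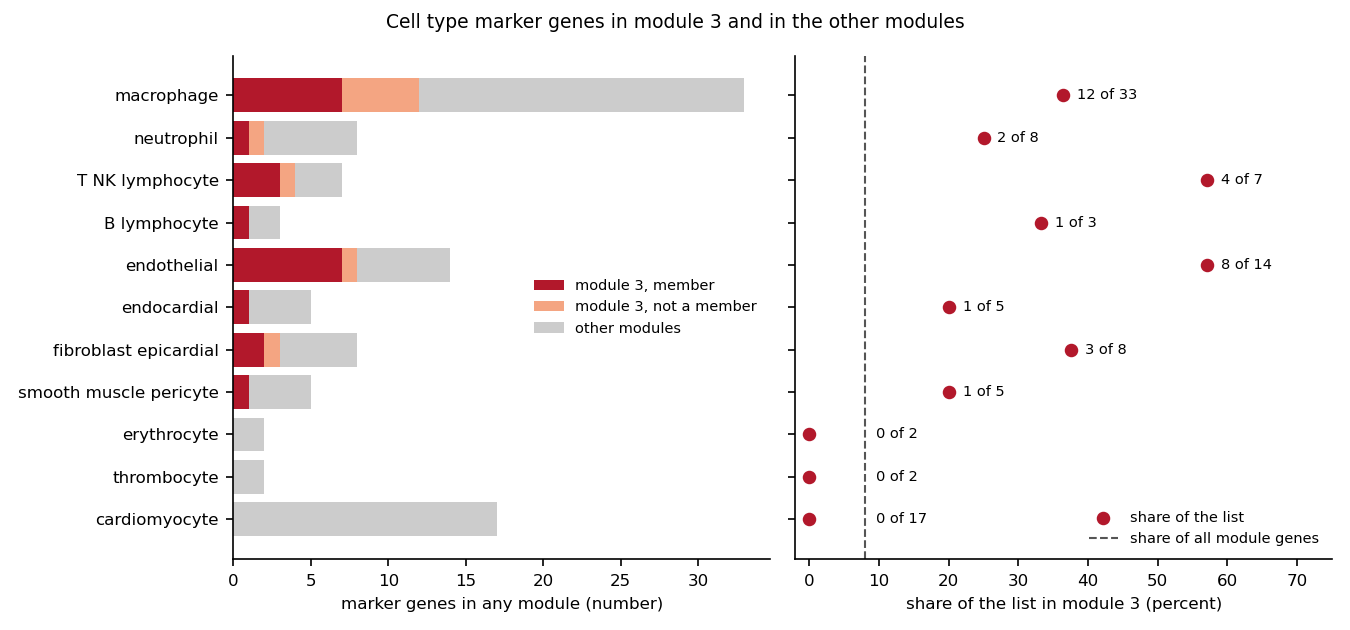
Cell type markers in module 3 and in the other modules. Bars at the left give the number of list genes in any module, split into members, other genes of module 3 and genes of other modules. Points at the right give the percentage of those list genes that lie in module 3. Listed symbols that match no module gene are left out. The dashed line marks the 8.02% of all module genes there. With symbols matched exactly, the endothelial and the T and NK cell lists are highest at 57.1%, and the cardiomyocyte list is at 0 of 17.

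Lists of pathway genes showed which parts of the immune system the module held. Chemoattractant receptors were 7 of 13 (53.8%), with XCR1, CCR8 and ccr11.1 in module 1 and CXCR4 and cxcr3.3 in module 2. The 13 also include the prostaglandin receptor PTGER3, in module 1. Chemokine ligands were 3 of 6, with ccl35.2 and ccl27b in module 1 and ccl34b.4 in module 4. All 3 in module 3 were thus of the CXC family and all 3 outside it of the CC family. Oxidase and phagocytosis genes were 7 of 16 (43.8%), among them the members SYK, cyba, WAS, CORO1A, DOCK8 and marco. Interleukins, tumour necrosis factor ligands and other cytokines were 3 of 9 (33.3%). The 9 include tgfb1a, tgfb1b, tgfb5 and cntf, all in other modules. Complement genes were 3 of 10, on a list that also took in the clotting gene f3b, in module 2. Vessel signalling genes were 14 of 53 (26.4%), and the 14 include sema4e, sema3gb, EFNA1 and EPHA4, counted above as guidance genes. The 53 also include flt3, a receptor gene of blood cell precursors, in module 5. Cytokine receptors were 5 of 22 (22.7%), on a list with TGFBR1 and TGFBR2, in other modules, but without the member ACVR1B. Interferon and STAT genes numbered 2 of 10, IRF8 and jak3, and lymphocyte receptor signalling genes 2 of 12 (16.7%), GRAP2 and grapa.

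Other immune pathways were no more frequent in module 3 than module genes as a whole, or nearly so. Innate sensors numbered 1 of 10, nlrc6, and NF-kB genes 1 of 16 (6.25%), bcl3. Antigen presentation numbered 1 of 19 (5.26%), mhc2daa, while 9 of the 19 were in module 1. Over the 12 pathway lists together, 47 of 193 genes (24.4%) were in module 3, and 37 of the 47 were members.

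**Figure D4:**
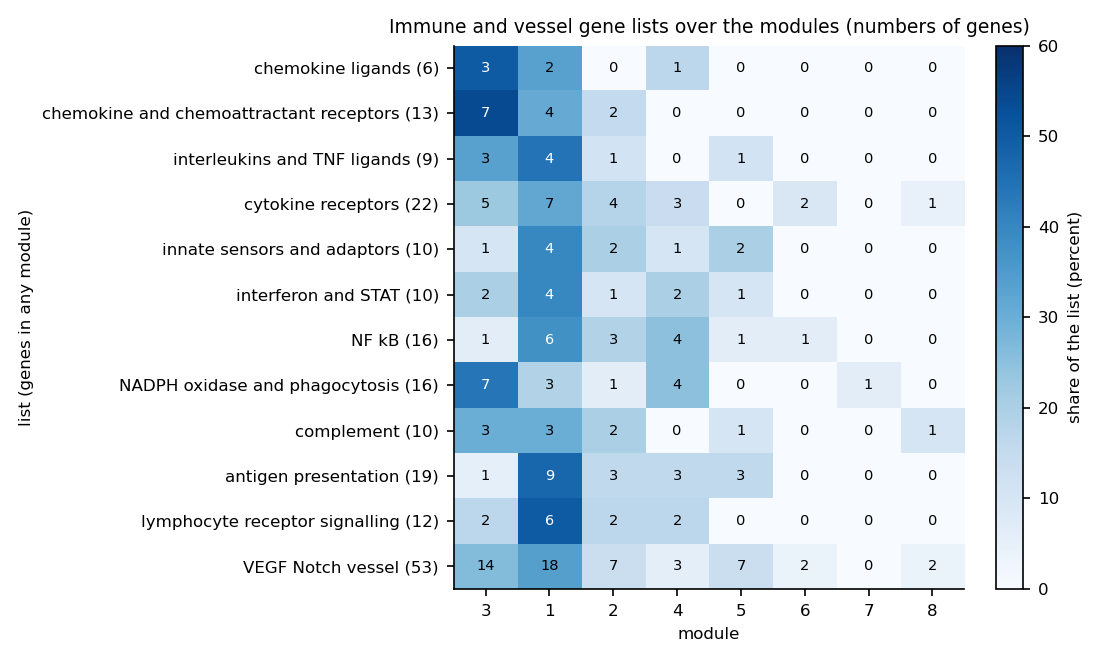
Genes of the 12 immune and vessel pathway lists in each module. Cells give the number of genes, and the colour gives the percentage of the list's genes in any module, which stand in brackets. Module 3, at the left, holds most chemoattractant receptors (7 of 13), while module 1, which holds 1543 of the 4449 module genes, holds more of antigen presentation (9 of 19).

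The immune terms were listed for few other modules. None of the 15 immune and chemotaxis terms of module 3 appears in any of the other 7 charts. Those charts hold 5 immune terms of other names, 2 in module 1, through cd74a and cd74b, and 3 in module 4, through RIPOR2, rac2, NCF1 and HIF1A, with none past the adjusted threshold. Immune terms were found by words in their names: chemotaxis, chemokine, cytokine, immune, inflammatory, macrophage, neutrophil, leukocyte or defense. Any immune term named in other words, such as antigen presentation, was not counted. A chart lists only terms past its own listing limit, so a term that is missing was not tested here. By contrast, angiogenesis was listed for module 1 too, where 25 genes gave 2.53-fold and an adjusted p of 0.0442 in the authors' deposited table, and for module 4 with 10 genes, at 3.01-fold and an adjusted p of 0.811. Fin regeneration was listed for module 1 with 11 genes, at 2.69-fold and an adjusted p of 0.514 in the authors' deposited table.

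Annotation of other kinds placed some of the members at the cell surface. Plasma membrane covered 59 of the 357 genes of module 3, 35 of them members (27.3% of the 128). It had a 1.81-fold enrichment and an adjusted p of 0.000235 in the authors' deposited table. The members were picked for carrying annotation, so their share in such terms cannot be set against that of all genes of module 3. External side of plasma membrane covered 13, of which 11 were members, at 3.41-fold and an adjusted p of 0.0153 in the authors' deposited table. The 11 were the 5 chemokine receptors, csf2rb, il21r.1, il23r, lifrb, tnfrsf11a and si:dkey-1h24.6. Hyaluronic acid binding held 3 genes, all members: the receptor cd44b and the matrix genes HAPLN1 and vcanb, at 9.19-fold in the authors' deposited table (p = 0.0416), where its adjusted p was 1.

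Some members share a name stem with another gene of the modules. Of the 18 members with such a gene in any module, 4 had it in module 3 and 14 had it elsewhere. The 4 were the RHOG genes and SPI1 with spi1a, 2 pairs each counted from both sides. Module 3 holds 8.02% of all module genes, so most genes of any kind lie elsewhere. A shared stem is not always a copy: the 14 include cyba with cybb and mhc2daa with mhc2dab, which are different chains of 1 complex. The gene cxcr3.2 was in module 3 and cxcr3.3, its neighbour in the RefSeq gene order of assembly GRCz12tu, in module 2. The gene tnfa was in module 3 and tnfb in module 1, and the member MPEG1 was in module 3 and a gene of the same symbol in module 4. Reads of such copies may be shared or split by the counting, whose rules are not given. Of the 128 members, 96 could be placed in the RefSeq gene order. The remaining members could not be placed. Within 3 coding genes of each other lay 2 pairs of members, asap3 with ID3 and cyba with MC1R. At the same distance, 3 pairs joined a member with another gene of module 3 and 75 a member with a gene of another module.

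The deposited list of module 3 is not 1 sorted list. Its identifiers ascend and then start again, giving 6 runs of 174, 69, 41, 55, 5 and 13 genes, and the lists of the other modules restart in the same manner. What the runs stand for is not given. The first run held 174 of the 357 genes (48.7%) and 55 of the 128 members (43.0%). Of the 11 phagocyte and immune effectors, 10 (90.9%) were in it, all but MPEG1. So were 8 of the 12 macrophage markers (66.7%) and 22 of the 34 members in immune terms (64.7%). These sets share genes, among them SPI1, cyba and marco, so they are not separate counts. Of the 8 endothelial markers, 1 (12.5%) was in it, rasip1, while 5 were in the second run and 2 in the fourth. Of the vessel role genes 2 of 9 (22.2%) were in the first run, and of the guidance and neural genes 2 of 12 (16.7%). The chemoattractant receptors were spread, with cxcr3.2, CCR9 and C3AR1 in the first run, 1 in the second and 3 in the fourth. No test was made of this order, since the sets were chosen with the lists known.

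**Figure D5:**
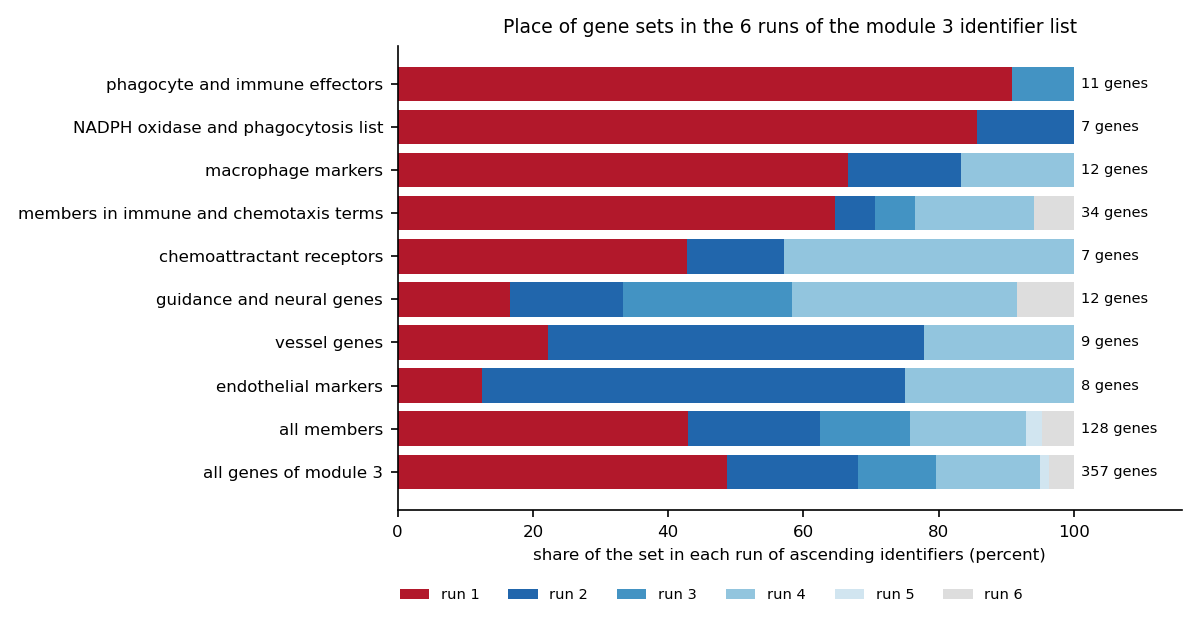
Place of gene sets in the deposited order of module 3. Each bar is split by the share of the set, in percent, that lies in each of the 6 ascending runs of identifiers, with the number of genes at the right. Phagocyte effectors lie mostly in the first run (90.9%) and endothelial markers mostly in later runs (12.5% in the first), against 43.0% of all members and 48.7% of all genes of module 3. Several of the sets share genes, so the bars are not separate counts.

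Not all members could be named or placed. The name table gave 126 of the 128 a symbol, 65 of them in capitals as for human genes, and ENSDARG00000090844 and ENSDARG00000090401 had none. These 2 and 4 members with clone names, among them si:dkey-33c9.6, zgc:154093 and si:dkey-1h24.6, were given no role. The remaining 122 members each have a role, including 9 transcription or chromatin regulators, 8 other G-protein coupled receptors or their partners, 7 channels or transporters, 5 Wnt and polarity genes and 3 matrix genes.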

How the data were processed

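Single cells of 7 SORT-seq plates, 4 hmga1a mutant and 3 wildtype, underlie the deposited lists. The submitters' processing notes name Seurat. The aligner, genome build, cell filters and construction of modules were not given in the sources used here. Module lists hold gene identifiers and no values, so depth is unknown and the comparison planned between plates, as an exact permutation test, was not made.

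Per the file headers, the authors' charts give for each term a gene count, a fold enrichment (a ratio to the background), a p-value and adjusted p-values. The Benjamini value, at a threshold of 0.05, was used. Counts and shares were computed in python 3.11.15, checked on simulated lists, with figures by matplotlib 3.10.9. Symbols came from the name table supplied for this work.

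The members and lists were chosen with earlier results of these data known. Roles, groups of terms and the removal of 31 wrong symbol matches from pathway lists were settled after the names were seen. The rule for named genes took members of called terms, members on a marker or pathway list, the 10 members in the most terms, gene copies, and non-members on such lists. Further members named in a term or role were added after their names were seen. No list was tested. Alternatives were the term category, the listing limits, symbol matching and the first run of identifiers. Some results are not reported here.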

Additional observations from a re-analysis of the deposited data

How the results depend on the processing

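No paired analysis was possible because the deposited lists hold no value for any plate; for the same reason the alternatives that leave out a plate were not run. The number of members was 15 from KEGG terms alone, 125 from biological process terms alone, 124 with at least 3 genes a term, 111 with p under 0.05, and 137 with the solute carriers kept. The number of called terms was 2 at an adjusted p under 0.01 and 38 at an unadjusted p under 0.05, against 5. Over all cell type lists but the cardiomyocyte one, 29 of 78 markers (37.2%) were in module 3. This was 32 of 97 (33.0%) when symbols in capitals were also matched to listed symbols without their final a or b. It was 33 of 99 (33.3%) when a final point and number was dropped too, an alternative chosen after seeing the data. In the first run of identifiers alone it was 12 of 48 (25.0%), and for the pathway lists 23 of 126 (18.3%), against 5.39% of all genes in the first runs. There the endothelial count was 1 of 4, the T and NK cell count 1 of 3 (33.3%) and the macrophage count 8 of 24 (33.3%). The first run holds fewer genes, and these marker and pathway shares were lower there. The share of all module genes in module 3 was lower too, at 5.39% against 8.02%. The cause was not tested. The cardiomyocyte count was 0 of 22 with either looser matching of symbols. The first run and the members alone are parts of module 3, so their count of 0 was fixed in advance. With no level and no depth, what the lists can show is limited to which genes they hold.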
